A study of Homo sapiens with 6 samples.

Results

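Matrix metalloproteases (MMPs), ADAM and ADAMTS proteases and their inhibitors were examined in SN12C, a human renal carcinoma cell line. Genes were taken by symbol: MMP, ADAM or ADAMTS followed by a number, TIMP1 to TIMP4, RECK and BSG. Of 69 genes with such a symbol in the current human gene table, 18 had a named probe among the 11646 genes tested. The title of the series names its subject as rewired metabolism and signalling in NF2-deficient tumor cells whose YAP and TAZ are inhibited. Expression was measured on 6 Illumina bead arrays, 3 per arm. Control cells carried the pTripz vector and GFP-luc, and knockdown cells carried pTripz YAPsh, pTripz TAZsh and GFP-luc. Both arms received doxycycline, which switches pTripz hairpins on, for 3 days or more, and both were without serum for the last 24 hours. The sources used here do not say whether each line was 1 clone or a pool. The series calls the 3 arrays of an arm technical repeats, so every p-value measures the spread between arrays, which may be technical.

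MMPs are zinc endopeptidases that cleave collagen and other matrix proteins, either secreted or held at the membrane. ADAMs are membrane proteins, some of which cut the outer parts off other membrane proteins (shedding), and ADAMTSs are secreted relatives that act on matrix proteoglycans and procollagens. Tissue inhibitors of metalloproteases (TIMPs) block the active site, RECK is a membrane-anchored inhibitor, and BSG (basigin, also called EMMPRIN) is a surface glycoprotein known for inducing MMPs in neighbouring cells. YAP and TAZ are co-activators that work on DNA through TEAD factors.

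YAP1 itself was 2.86-fold lower in knockdown cells. On the log2 scale the controls read 8.47, 8.26 and 8.47, and all 3 knockdown arrays lay lower, at 7.33, 6.77 and 6.56. The limma adjusted p was 0.000355. WWTR1, which encodes TAZ, had no named probe and was not analysed here. The arrays detected 41.6% to 44.3% of their 47315 probes. Of 11 genes listed here as renal epithelial markers, 6 were measured. KRT8, KRT18, KRT19, VIM and PAX8 were detected on every array, EPCAM on 3. The summed linear level of those 6 genes was 10910 to 12137 in control and 6465 to 7299 in knockdown cells and VIM made up 69.8% of the control sum. KRT19 (log2 change -3.05), KRT8 (-1.07) and VIM (-0.45) fell, while KRT18 (-0.36), PAX8 (0.28) and EPCAM (0.28) did not pass the test. For 4 of 8 fibroblast markers (PDGFRB, THY1, COL1A1 and LUM) the sum was 1609 to 1683 and 816 to 920, of which PDGFRB and THY1 made up 37.9% and 59.1% in control cells. These 2 genes fell, while COL1A1 was below background on all knockdown arrays and LUM on all control arrays. Of 5 immune markers, 3 were measured, with sums of 1835 to 2110 and 1877 to 2222, and of 5 endothelial markers 0. CD68 made up 90% of the immune sum in control cells. CD14 rose (log2 change 0.71, limma adjusted p 0.00171), while CD68 (-0.04) and CD79A (-0.24) did not pass the test. The part of these shifts in the results below was not tested. In bulk RNA, fewer cells that express a gene and less RNA per cell cannot be told apart.

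Knockdown cells differed from control cells in 11 of the 18 measured genes, with 7 rises and 4 falls, and 7 genes did not pass the threshold of an adjusted p under 0.05 in limma. Over all 11646 genes, 39.8% were called, 20.3% higher and 19.5% lower. Control and knockdown arrays were fully separated for 13 of the 18 genes, against 50.9% of all genes. The median log2 change was 0.19 over the 18 genes and 0.03 over all genes. A probe counted as measured if its detection p-value was under 0.05 on at least 3 of the 6 arrays. Of the 18 genes, 15 were detected on all 6 arrays and 0 were undetected throughout an arm. ADAM11 and ADAM22 were detected on all 3 arrays in knockdown cells only, and MMP24 in control cells only. The arm where they are higher would thus have let these genes in alone. MMP16, a membrane protease, and the inhibitors TIMP1 and RECK were called higher in every one of 19 alternative settings that were run. The other rises were in MMP11, ADAM9, ADAM11 and BSG, and the falls were in MMP24, ADAM19, ADAM23 and ADAMTS1.

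**Figure D1:**
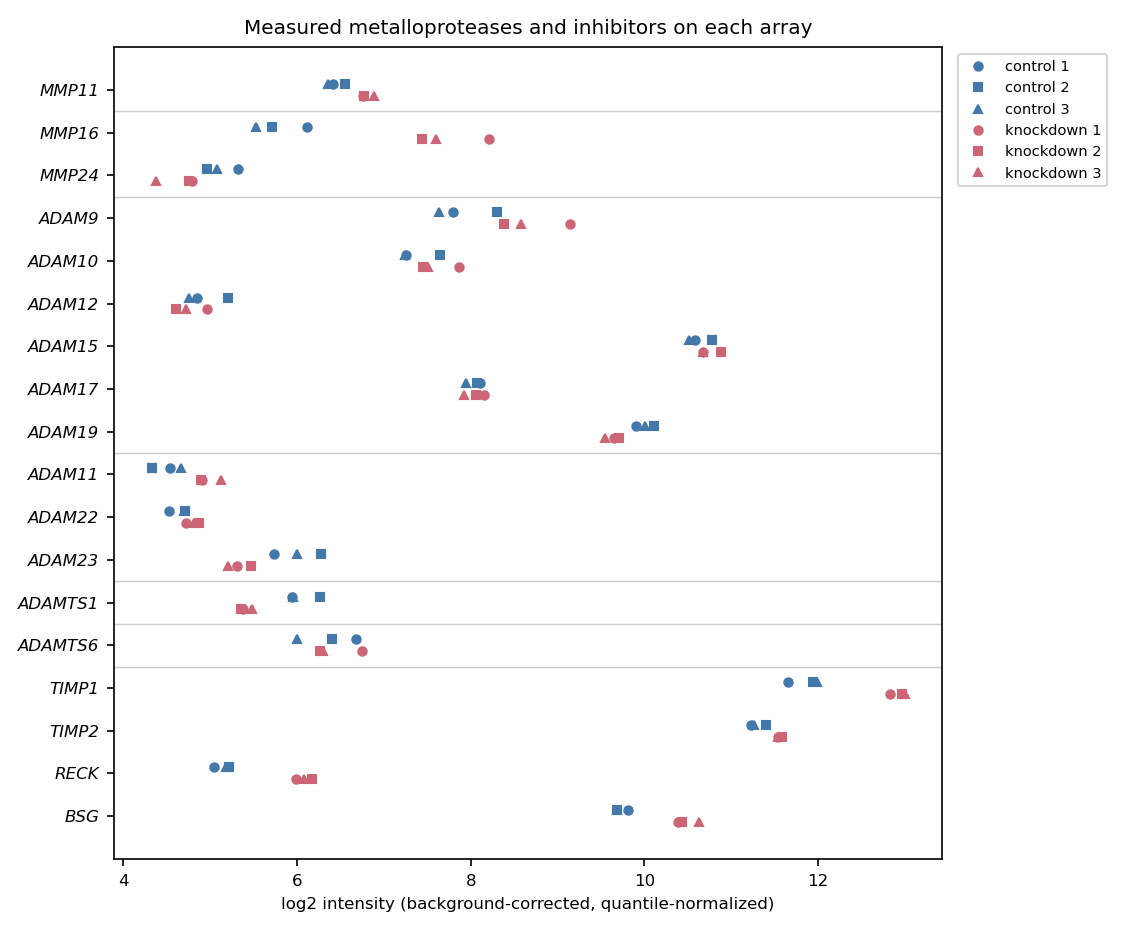
Log2 intensity of the 18 measured genes on each array, with control arrays in blue, knockdown arrays in red and the marker shape giving the array number. Horizontal lines separate the classes. MMP16, TIMP1, RECK and BSG show the knockdown arrays to the right of every control array. Positions are compared along a row only, since different probes have different brightness.

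**Figure D2:**
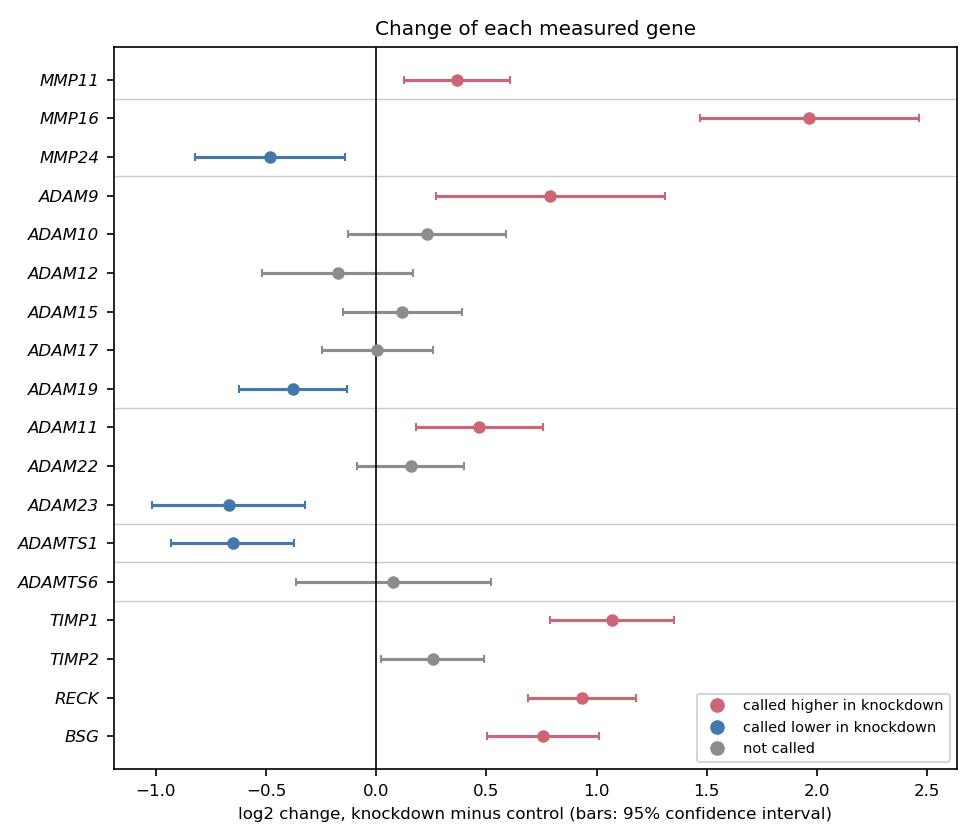
Log2 change of each gene (knockdown minus control) with its 95% confidence interval from limma. Red genes were called higher, blue genes lower and grey genes were not called. MMP16 has the largest value, 1.97, and ADAM23 the lowest, -0.67.

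The other 51 genes had no probe with a name, and none of them can be called absent. The annotation names detected probes alone, and 4851 detected probes carry no name in it. These genes, not analysed here, were the MMPs MMP1, MMP2, MMP3, MMP7, MMP8, MMP9, MMP10, MMP12, MMP13, MMP14, MMP15, MMP17, MMP19, MMP20, MMP21, MMP25, MMP26, MMP27 and MMP28; the ADAMs ADAM2, ADAM5, ADAM6, ADAM7, ADAM8, ADAM18, ADAM20, ADAM21, ADAM28, ADAM29, ADAM30, ADAM32 and ADAM33; the ADAMTSs ADAMTS2, ADAMTS3, ADAMTS4, ADAMTS5, ADAMTS7, ADAMTS8, ADAMTS9, ADAMTS10, ADAMTS12, ADAMTS13, ADAMTS14, ADAMTS15, ADAMTS16, ADAMTS17, ADAMTS18, ADAMTS19 and ADAMTS20; and TIMP3 and TIMP4. The collagenases, the gelatinases, the matrilysins and MMP14 are all among them.

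The inhibitor class and BSG gave 3 rises among 4 measured genes and 0 falls, where 20.3% of all genes rose and 19.5% fell. TIMP1, a secreted inhibitor of many MMPs, read 11.65, 11.94 and 11.99 on the log2 scale on the control arrays. Its knockdown arrays read 12.83, 12.97 and 13.00. Each of these lay above every control array, and the means were 11.86 ± 0.182 and 12.93 ± 0.0916 (SD, n = 3). TIMP1 rose 2.10-fold, a log2 change of 1.07 ± 0.124 (SE) with a limma adjusted p of 0.000227. RECK, which restrains MMP activity at the cell surface, read 5.04, 5.21 and 5.18 in control and 5.99, 6.17 and 6.08 in knockdown cells. The arms were again apart, and RECK rose 1.91-fold (log2 change 0.93 ± 0.108 (SE), limma adjusted p 0.000222). Without background correction its rise was 1.26-fold. A second probe of RECK rose by 0.80 on the log2 scale (limma adjusted p 0.0047 in a separate fit of all detected probes). That probe read 4.69, 5.19 and 5.18 in control and 5.84, 5.75 and 5.88 in knockdown cells.

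BSG read 9.82, 9.68 and 9.69 in control cells. In knockdown cells it read 10.38, 10.44 and 10.63, so that the lowest knockdown array lay above the highest control array. BSG rose 1.69-fold (log2 change 0.76 ± 0.112 (SE), limma adjusted p 0.000885). It missed the threshold with the arrays scaled to the median of all probes (0.118), the highest p over its 19 alternatives, which started at 3.67e-05. TIMP2, an inhibitor that also takes part in the activation of MMP2 at the membrane, read 11.22, 11.41 and 11.26 in control and 11.54, 11.58 and 11.54 in knockdown cells. The arms did not overlap, yet its log2 change of 0.26 missed the threshold (limma adjusted p 0.0779), with a 95% interval of 0.02 to 0.49. Its other probe gave 0.24. TIMP2 passed the threshold without background correction (0.014), with normexp without detection p-values (0.0254) and with a trend and robust prior (0.0278), over a range of 0.014 to 0.803.

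For the 3 called genes of this group the promoter windows of RefSeq (GRCh38.p14, 250 bases before to 50 after the start of the gene) are printed, because these genes rose together, with ADAM23, a gene that fell. Capitals mark 3 kinds of match on either strand: GGAATG, the core bound by TEAD factors; TGAGTAA, the variant AP-1 site known from TIMP1; and GGGCGG, the core bound by Sp1. The AP-1 consensus TGANTCA was also searched, and matches of different motifs were allowed to overlap. The windows lie at chrX:47582186-47582485 (plus strand) for TIMP1 and chr9:36036663-36036962 (plus strand) for RECK. BSG has 2 windows, at chr19:571033-571332 and chr19:572346-572645 (plus strand), and ADAM23 lies at chr2:206443282-206443581 (plus strand).
TIMP1: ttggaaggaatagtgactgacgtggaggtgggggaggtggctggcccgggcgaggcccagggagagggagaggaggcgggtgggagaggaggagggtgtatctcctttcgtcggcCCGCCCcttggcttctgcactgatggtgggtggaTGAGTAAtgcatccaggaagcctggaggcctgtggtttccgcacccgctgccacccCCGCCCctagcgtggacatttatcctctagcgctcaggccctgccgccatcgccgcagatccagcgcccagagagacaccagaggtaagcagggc
RECK: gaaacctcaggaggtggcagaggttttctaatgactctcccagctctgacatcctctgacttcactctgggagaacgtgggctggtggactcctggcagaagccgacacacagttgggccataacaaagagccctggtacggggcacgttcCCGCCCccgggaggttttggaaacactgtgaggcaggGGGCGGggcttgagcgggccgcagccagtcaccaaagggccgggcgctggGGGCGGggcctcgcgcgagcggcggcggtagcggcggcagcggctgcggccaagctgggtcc
BSG, window 1: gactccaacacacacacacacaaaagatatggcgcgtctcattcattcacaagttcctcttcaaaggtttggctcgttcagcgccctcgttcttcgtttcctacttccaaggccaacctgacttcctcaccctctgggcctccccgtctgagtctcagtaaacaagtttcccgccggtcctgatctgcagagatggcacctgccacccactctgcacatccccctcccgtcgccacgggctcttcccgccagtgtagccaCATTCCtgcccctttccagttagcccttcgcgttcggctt
BSG, window 2: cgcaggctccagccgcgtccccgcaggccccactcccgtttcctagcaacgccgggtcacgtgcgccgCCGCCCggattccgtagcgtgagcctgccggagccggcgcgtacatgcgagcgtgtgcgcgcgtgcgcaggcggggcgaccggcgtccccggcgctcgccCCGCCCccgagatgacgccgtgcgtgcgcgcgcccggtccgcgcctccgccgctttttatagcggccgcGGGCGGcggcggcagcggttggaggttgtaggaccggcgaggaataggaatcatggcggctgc
ADAM23: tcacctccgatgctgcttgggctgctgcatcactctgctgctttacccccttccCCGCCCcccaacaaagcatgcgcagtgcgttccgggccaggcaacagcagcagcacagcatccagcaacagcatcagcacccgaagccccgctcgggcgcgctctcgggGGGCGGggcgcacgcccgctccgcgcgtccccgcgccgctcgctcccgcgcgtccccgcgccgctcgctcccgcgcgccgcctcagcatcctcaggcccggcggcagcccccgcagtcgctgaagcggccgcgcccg

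Of the 18 genes, 13 had a window in the table. A gene was counted if any of its windows held a match, whereas the shares over all count single windows. This favours BSG, which has 2 windows. The TEAD core lay in 3 of the 13 genes (BSG, ADAM17 and ADAMTS6) and in 14% of all 35116 windows. In BSG it starts at base 11 after the start site of its first window, while ADAM17 and ADAMTS6 were not called. TGAGTAA was found in TIMP1 alone, at base -101, and in 2.57% of all windows. TGANTCA was found in 0 of the 13 genes and in 7.71% of all windows. The Sp1 core lay in 11 of the 13 genes and in 45% of all windows. RECK held 3 such matches, TIMP1 2, ADAM23 2 and BSG 3, all of the latter in its second window. The windows of these genes are rich in G and C (65% in TIMP1, 66.7% in RECK, 56.7% and 75.3% in BSG, 74.7% in ADAM23). A match describes letters and shows no binding.

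Among the MMPs, the membrane-type proteases went opposite ways. MMP16, known as MT3-MMP, read 6.11, 5.71 and 5.53 in control and 8.21, 7.44 and 7.60 in knockdown cells. All knockdown arrays lay above all control arrays, with knockdown array 1 the highest and control array 1 the highest of its arm. MMP16 rose 3.91-fold (log2 change 1.97 ± 0.218 (SE), limma adjusted p 0.000183), rank 167 of 11646 genes by size of change. Without both arrays numbered 1 the rise was 3.82-fold. A second MMP16 probe, detected on 1 control array and all 3 knockdown arrays, read 4.55, 4.32 and 4.37, then 4.81, 4.80 and 4.87. It rose by 0.41 on the log2 scale (limma adjusted p 0.0207 in the separate fit of all detected probes), less than the brighter probe. This dimmer probe is annotated to a RefSeq transcript, and the brighter one to a sequence record outside RefSeq. With the mean of both probes MMP16 rose 2.28-fold, and without background correction 2.11-fold.

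MMP24, known as MT5-MMP, read 5.32, 4.96 and 5.07 in control and 4.79, 4.76 and 4.37 in knockdown cells. The arms did not overlap, and 2 of the 3 knockdown arrays were above background. MMP24 fell 1.40-fold (log2 change -0.48 ± 0.149 (SE), limma adjusted p 0.0311). Leaving out the first control array (limma adjusted p 0.0894), the last control array (0.0673) or the last knockdown array (0.1) ended the call. So did no background correction (0.11), normexp without detection p-values (0.0775), no filter on dim probes (0.0876) and median scaling over all probes (0.391) or detected probes (0.123), over a range of 0.0112 to 0.391 in 18 alternatives. MMP11, stromelysin-3, a secreted protease that is activated inside the cell by furin, read 6.41, 6.55 and 6.35 in control and 6.76, 6.77 and 6.88 in knockdown cells. The arms did not overlap, and MMP11 rose 1.29-fold (log2 change 0.37 ± 0.105 (SE), limma adjusted p 0.0225). Its adjusted p rose past the threshold when control array 1 (0.0529) or 3 (0.0952) or knockdown array 2 (0.0526) or 3 (0.0807) was left out, and with median scaling (0.479), over a range of 0.0191 to 0.479.

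Of 6 measured ADAMs with a working protease domain, 1 rose, 1 fell and 4 did not pass, where 20.3% of all genes rose and 19.5% fell. ADAM9, a widely expressed sheddase, read 7.80, 8.31 and 7.63 in control and 9.15, 8.38 and 8.58 in knockdown cells. The gap between the arms was narrow, from 8.31 on control array 2 to 8.38 on knockdown array 2, and knockdown array 1 was the highest. ADAM9 rose 1.73-fold (log2 change 0.79 ± 0.229 (SE), limma adjusted p 0.0233). Without both arrays numbered 1 it was 1.43-fold higher and missed the threshold (0.0615), as it did without control array 1 (0.0667), without control array 3 (0.084), with median scaling (0.193) and with no filter on dim probes (0.104), over a range of 0.0134 to 0.193. ADAM19, known for shedding neuregulin, read 9.91, 10.11 and 10.01 in control and 9.65, 9.71 and 9.54 in knockdown cells. Every knockdown array was below every control array, and ADAM19 fell 1.30-fold (log2 change -0.38 ± 0.108 (SE), limma adjusted p 0.0223). The call was lost without control array 2 (0.0701), control array 3 (0.0757) or knockdown array 3 (0.0825) and with median scaling (0.408), over a range of 0.00633 to 0.408.

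The best known sheddases were not called. ADAM10, which releases Notch and cadherin ectodomains, read 7.26, 7.64 and 7.24 in control and 7.87, 7.45 and 7.51 in knockdown cells. The arms overlapped, and the log2 change of 0.23 had a 95% interval of -0.13 to 0.59 (limma adjusted p 0.286). ADAM17, also called TACE, which releases tumor necrosis factor and ligands of the EGF receptor, read 8.10, 8.07 and 7.95 in control and 8.16, 8.06 and 7.92 in knockdown cells. Its log2 change was 0.01 with a 95% interval of -0.24 to 0.26 (limma adjusted p 0.973), and 2 further probes gave -0.18 and -0.04. ADAM15 changed by 0.12 (95% interval -0.15 to 0.39) on its brightest probe. Its 3 other probes, annotated to several transcript versions, gave 0.38, 0.20 and 0.09, none past the threshold. ADAM12 changed by -0.18 (95% interval -0.52 to 0.17). For these 4 genes the arms overlapped on the reported probe, and the intervals leave room for changes of either sign.

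**Figure D3:**
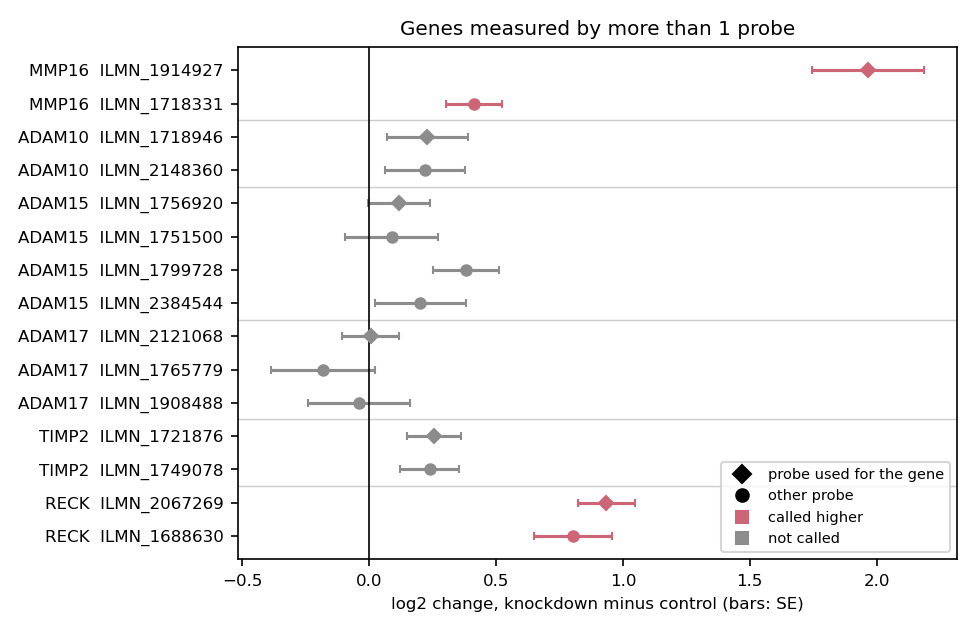
Log2 change of each of the 15 probes of the 6 genes that had more than 1, with the SE as a bar. Diamonds mark the probe used for the gene, and colour gives the call among all detected probes. The MMP16 probes lie at 1.97 and 0.41 and the RECK probes at 0.93 and 0.80, while all probes of ADAM10, ADAM15, ADAM17 and TIMP2 are grey.

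ADAM11, ADAM22 and ADAM23 lack a working protease site and act in adhesion and at synapses, where ADAM22 and ADAM23 bind LGI1. ADAM23 read 5.73, 6.27 and 5.999 in control and 5.31, 5.47 and 5.20 in knockdown cells. The arms did not overlap, and ADAM23 fell 1.59-fold (log2 change -0.67 ± 0.152 (SE), limma adjusted p 0.00781). It missed the threshold with median scaling (0.191) and had a range of 0.0019 to 0.191. Without background correction the ADAM23 fall was 1.19-fold. ADAM11 read 4.53, 4.32 and 4.67 in control cells, above background on 1 array, and 4.91, 4.89 and 5.12 in knockdown cells, above background on all 3. ADAM11 rose 1.38-fold (log2 change 0.47 ± 0.127 (SE), limma adjusted p 0.0177). That call was lost without control array 2 (0.0707), knockdown array 3 (0.0639), background correction (0.0957), with normexp without detection p-values (0.0632) and with median scaling over all probes (0.275) or over detected probes (0.212), over a range of 0.00536 to 0.275. ADAM22 read 4.53, 4.71 and 4.70, then 4.72, 4.87 and 4.81. Its log2 change of 0.16 did not pass (95% interval -0.09 to 0.40, limma adjusted p 0.286), although the arms did not overlap.

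Both measured ADAMTS genes encode secreted proteases. ADAMTS1, which cleaves the proteoglycans aggrecan and versican, read 5.94, 6.27 and 5.95 in control and 5.37, 5.35 and 5.48 in knockdown cells. The knockdown arrays lay below all control arrays, and ADAMTS1 fell 1.57-fold (log2 change -0.65 ± 0.122 (SE), limma adjusted p 0.00313). With median scaling it missed the threshold (0.197, within a range of 0.00243 to 0.197). Without background correction the ADAMTS1 fall was 1.18-fold. ADAMTS6 read 6.67, 6.40 and 5.999 in control and 6.75, 6.27 and 6.30 in knockdown cells. The arms overlapped, with the arrays numbered 1 the highest of each arm, and its log2 change of 0.08 had a 95% interval of -0.37 to 0.52.

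**Figure D4:**
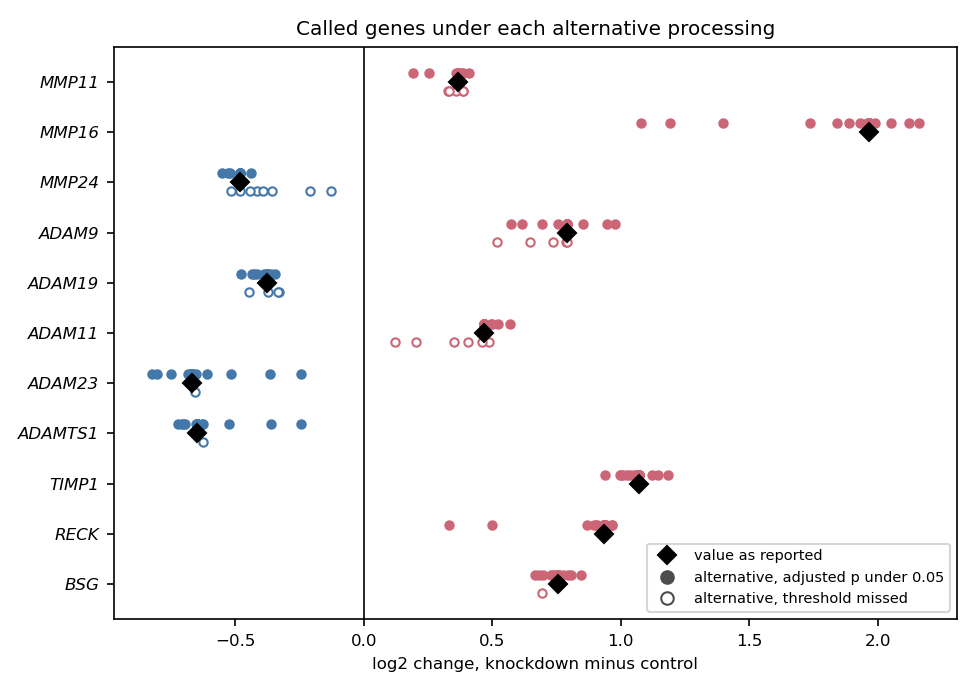
Log2 change of the 11 called genes as reported (diamonds) and under each alternative setting (circles, filled where the adjusted p was under 0.05). Every circle of MMP16, TIMP1 and RECK is filled, and no gene has circles on both sides of 0. MMP24, MMP11, ADAM9, ADAM11 and ADAM19 have open circles under several settings.

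Genes around the proteases were read from the same fit in lists by role. Furin-type convertases, which remove the prodomain of several MMPs and ADAMs, gave 0 calls among 3 measured genes (FURIN, PCSK5 and PCSK7), and 39.8% of all genes were called. Their log2 changes were 0.26, 0.10 and -0.14. The iRhoms and FRMD8, which carry ADAM17 to the surface, and the TspanC8 tetraspanins, which do so for ADAM10, gave 2 rises and 4 falls among 9 measured genes. Over all genes, 20.3% rose and 19.5% fell. TSPAN10 fell 1.92-fold (limma adjusted p 0.000515), TSPAN5 1.80-fold (0.00764) and TSPAN15 1.58-fold (0.0143), while FRMD8 rose 1.65-fold (0.00107). The TSPAN15 call was lost with control array 3 left out (0.0564), no background correction (0.0502), no filter on dim probes (0.0561) and median scaling over all probes (0.14) or detected probes (0.0874). TSPAN10 alone of these 4 kept its call with median scaling over all probes. With the median of detected probes TSPAN5 (0.0131) and FRMD8 (0.00472) kept theirs too. The remaining fall was in TSPAN14 (log2 change -0.45), and RHBDF1 (iRhom1) was the second rise, with a log2 change of 0.53. The other iRhom, RHBDF2, changed by -0.33 and did not pass (limma adjusted p 0.0743). Neither did the tetraspanins TSPAN17 (-0.24) and TSPAN33 (-0.10).

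Known substrates of ADAM10 and ADAM17 went both ways, with 9 of 23 measured genes higher and 7 lower, against 20.3% and 19.5% of all genes. One of the 7, L1CAM, was below background on all knockdown arrays and entered through its 3 control arrays alone. Its place among the falls was thus fixed by that selection. With the background correction used it was at least 1.65-fold lower. SDC1, syndecan-1, fell 3.66-fold (limma adjusted p 4.45e-06) by its brightest probe, and its second probe gave -0.08 on the log2 scale. CDH2, N-cadherin, rose 2.44-fold (3.43e-05), ALCAM, an adhesion molecule, 2.23-fold (6.75e-05) and APP, the amyloid precursor, 2.14-fold (0.00392). SDC1 fell 1.96-fold with the mean of its probes and 2.20-fold without background correction. The ADAMTS-like proteins, which share ADAMTS matrix-binding domains and have no protease domain, gave 1 rise and 1 fall among 5. ADAMTSL4, known for its role in fibrillin fibres of the eye, rose 3.27-fold (6.99e-06), with its other probes at 1.84 and -0.13 on the log2 scale. ADAMTSL1 fell 3.31-fold (2.29e-05), or 1.49-fold without background correction and 1.83-fold with normexp without detection p-values. A second ADAMTSL1 probe gave -0.93 on the log2 scale, and the mean of both probes a fall of 2.51-fold.

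Other inhibitors and the plasmin system, which activates several MMPs, were also read. Of 3 measured inhibitors outside the TIMPs, SERPINE2, a serine protease inhibitor also called protease nexin-1, fell 25.5-fold (limma adjusted p 6.92e-07). TFPI2 changed by 0.10 on the log2 scale. SPOCK3, a secreted proteoglycan, was below background on all control arrays and entered through its 3 knockdown arrays alone. That selection fixed in advance that SPOCK3 would differ, but not by how much. Set against the lowest detected value of the control arrays, SPOCK3 was at least 1.75-fold higher with the background correction used. The SERPINE2 fall was 8.26-fold without background correction and 12.4-fold with normexp without detection p-values. The fitted SPOCK3 fold without background correction was 1.26. Among 5 plasminogen activation genes 3 fell and 0 rose, where 19.5% of all genes fell and 20.3% rose. ANXA2, a surface docking site for plasminogen, was lower on each of its 3 probes. The brightest gave 1.63-fold (0.00115), the other probes gave log2 changes of -2.32 and -1.43, and the mean of the 3 gave 2.80-fold. The brightest probe stood at rank 33 by brightness on each control array, so quantile normalization gave it 1 value there, 13.37, with an SD of 0. PLAUR, the urokinase receptor, fell 1.5-fold (0.0107) and PLAT 1.27-fold (0.0395). With median scaling ANXA2 (0.0599), PLAUR (0.249) and PLAT (0.428) missed the threshold, and PLAT did so without any 1 of the arrays except control array 2. BMP1, the only measured astacin, changed by 0.33 and did not pass.

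Transcription factors of the AP-1 and ETS families, known inducers of MMP and TIMP genes, gave 2 rises and 3 falls among 11 measured genes, a share near the 39.8% called over all genes. ETS2 fell 3.83-fold (limma adjusted p 3.21e-06) and JUN 2.15-fold (0.000189), while ETV5 rose 2.58-fold (0.000106) by its brightest probe and JUNB 1.40-fold (0.00824). A second ETV5 probe rose by 0.47 on the log2 scale, and the mean of both probes gave 1.89-fold. ETS2 read 6.996, 7.07 and 7.19 in control and 5.11, 5.14 and 5.19 in knockdown cells, so the arms were well apart. It fell 1.80-fold without background correction and 2.28-fold with normexp without detection p-values. JUNB missed the threshold without background correction (0.0535) and with median scaling over all probes (0.307) or detected probes (0.0555).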

How the data were processed

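RNA of SN12C cells was measured on 6 arrays, 3 control and 3 knockdown. The deposited probe intensity is linear and not normalized, per the file headers, with a detection p-value per probe and array, also per the file headers. A second deposited table holds log2 values, for which the submitters' processing notes name limma. It held 20348 probes, the same probes as the detection filter used here keeps, and differed from the values computed here by at most 0.0238. Scanner software is not given in the sources used here.

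Of 48202 lines, 887 without an identifier were left out. Intensities were background-corrected by normexp from detection p-values (offset 16), quantile-normalized and brought to log2 (neqc, limma 3.58.1, R 4.3.3). Probes with detection p-values under 0.05 on 3 or more arrays were kept. The supplied platform annotation names 15497 of them, 15493 with 1 symbol, and the brightest probe stood for a gene. The comparison of the arms used limma (lmFit, eBayes), two-sided, with Benjamini-Hochberg adjustment over all 11646 genes. Adjusted p-values of further probes of a gene came from a separate fit of all 20348 kept probes. The procedure was tested on simulated data with independent noise for each gene and array. Such data cannot show how the calls behave where arrays deviate together. A gene below background on all arrays of an arm has a bound, "at least N-fold", from the lowest detected value. The number of arrays limits precision.

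Named were YAP1, every measured gene, and up to 4 called genes of each list with the largest changes; others are named where a count is explained. Members, lists and motifs were chosen with earlier results of these data known. Same-numbered arrays of both arms deviated together (r = 0.627, 0.27 and 0.467 across genes), so the replicate number was also fitted as a block, although control array 3 with knockdown array 2 (0.378) and control array 2 with knockdown array 3 (0.222) did so too.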

Additional observations from a re-analysis of the deposited data

How the results depend on the processing

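The count of called genes among the 18 was 11, with 7 higher and 4 lower. With the replicate number as a block it was also 11 (7 and 4), and the pairing changed no call of a measured gene, while calls over all genes rose from 4638 to 5624. Leaving out 1 array at a time gave 7 to 11 calls, 5 to 7 higher and 2 to 4 lower. Without control array 3 or knockdown array 3 there were 7. With arrays scaled to the median of all probes, most of them at background, 3 were called, 3 higher (MMP16, TIMP1 and RECK) and 0 lower, and calls over all genes fell to 1236. With the median of probes detected on all arrays the counts were 9 and 3713. That setting was added after seeing the data, as were those without both arrays numbered 1 and with all 47315 probes. The planned setting without a filter on named probes was not run, since every named probe passes the filter. Over 338 comparisons of a gene with its alternative, 296 kept direction and side of the threshold, 31 lost the call, 3 gained it and 8 changed sign. ADAM17 turned to -0.0715 with the mean of probes, -0.0184 without both arrays numbered 1 and -0.00282 with the median of detected probes, and ran from -0.049 to 0.0686 without 1 array. ADAMTS6 ran from -0.10 to 0.24 without 1 array. Neither gene was called in any of them, and the cause was not tested. Genes that were dim in either arm (MMP16, MMP24, ADAM11, ADAM12, ADAM22, ADAM23, ADAMTS1 and RECK) have folds that depend on the background correction. Their signal over background limits them.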
